A study of Mus musculus with 4 samples.

Results

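The genes described here are 5 isoforms of protein kinase C (PKC), Prkca, Prkcb, Prkcd, Prkce and Prkcz, and 3 phospholipases C of the beta class, Plcb1, Plcb3 and Plcb4. They were chosen by symbol, for their role in calcium and lipid signaling, with earlier results of these data known. All 8 were found among the 12700 genes of the deposited count table. The Prkcb, Prkce, Prkca, Prkcz and Plcb1 genes had more reads in both libraries labelled Ids-KO than in both labelled WT, whereas Prkcd and Plcb4 had fewer, by 7.06-fold for Prkcd in the cortex pair. Plcb3 differed least.

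Plcb enzymes sit at the inner face of the plasma membrane, where activated Gq proteins switch them on downstream of receptors for glutamate, acetylcholine, serotonin and other transmitters. They cleave a membrane phosphoinositide into inositol trisphosphate (IP3), which opens calcium channels of the endoplasmic reticulum, and diacylglycerol, which stays in the membrane. Conventional PKC isoforms (such as the products of Prkca and Prkcb) need both calcium and diacylglycerol, the isoforms of Prkcd, Prkce, Prkch and Prkcq need diacylglycerol but not calcium, and the atypical isoforms of Prkcz and Prkci need neither. In brain, PKC isoforms phosphorylate channels, receptors and synaptic proteins, and their transcripts are known to differ between brain areas.

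RNA was sequenced from C57BL/6 mice at 9 months of age, either Ids-KO (genotype Ids-/-), a model of mucopolysaccharidosis type II (Hunter syndrome) in which the gene of the lysosomal enzyme iduronate 2-sulfatase is disrupted, or WT littermates. In each genotype 2 areas were taken, the cerebral cortex (Cx) and a block of midbrain, diencephalon and hippocampus (M), which in the description of the dissection also held the striatum. By that description both areas came from each brain, so the 2 pools of a genotype share mice. Total RNA of 7 mice was pooled by area and genotype before polyA RNA was purified, and each of the 4 pools (CxH and MH from Ids-KO, CxWT and MWT from WT) gave 1 library of SOLiD reads. No comparison therefore had replicates, the spread between mice or pools is unknown, no p-value is given, and every error below covers the counting of reads and nothing else. In bulk tissue, fewer cells of a type and less RNA per cell cannot be told apart.

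The libraries held between 16380080 and 23475080 reads on genes, which was 56.6% to 61.0% of their aligned reads. A count of 3 reads, the upper limit that a count of 0 allows, was worth 0.0779 to 0.104 reads per 1000000 aligned reads (RPM). Ids, the disrupted gene, had 135 RPM in CxH and 354 in CxWT, but 368 in MH and 155 in MWT, so that in the M pair the library labelled Ids-KO had more Ids reads than the one labelled WT. The count covers the whole gene, and which part of it the disruption removed is not stated in the labels.

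Markers of brain areas did not follow the labelled areas either. The summed level of 12 markers of cortical and hippocampal excitatory neurons was 1920 RPM in CxH and 1780 in MH, but 279 in CxWT and 225 in MWT. That of 10 thalamus markers was 74.3 and 86.9 RPM in the former 2 and 509 and 445 in the latter, and that of 10 hypothalamus and midbrain markers 6.83 and 6.88 RPM against 205 and 161. Of the last list, 7 genes in CxH and 4 in MH had 3 reads or fewer, and En1, a midbrain transcription factor, had 0 in MH, the library labelled as midbrain, diencephalon and hippocampus. The 9 markers of striatal medium spiny neurons summed to 1210 and 1030 RPM in CxH and MH and to 487 and 475 in CxWT and MWT. In summed level CxH was thus closer to MH than to CxWT, and CxWT closer to MWT than to CxH, in each of these lists. Single markers still differed past a log2 ratio of 0.7. In CxH vs. MH, 4 of the 10 hypothalamus and midbrain markers and 2 of the 10 thalamus markers were lower and 1 of the 9 striatal markers was higher. Most of the former rest on few reads in CxH and MH. Oxt had 1 and 6 reads (log2 ratio -2.63 ± 1.6 SE), Gata3 1 and 4 (-2.04 ± 1.6) and Avp 3 and 7 (-1.27 ± 1.0), so counting error covers these differences. In CxWT vs. MWT, 3 hypothalamus and midbrain markers, 1 thalamus marker and 1 cortical marker were higher and 1 thalamus marker was lower. The markers of 6 other cell types had median log2 ratios of -0.85 (CxH vs. CxWT) and -0.66 (MH vs. MWT) for oligodendrocytes, 1.06 and -0.46 for microglia, 0.26 and -0.28 for astrocytes, 0.62 and -0.05 for endothelial cells, 1.17 and 0.56 for choroid plexus, and -0.26 and -0.36 for Purkinje cells. The names CxH, CxWT, MH and MWT stand below for the libraries that carry these labels, and the cortex pair (CxH vs. CxWT) and the M pair (MH vs. MWT) are named by label as well. Labels may have been exchanged between libraries, which was not tested, and no ratio below can be read as an effect of genotype or area without that doubt. Genotype and area markers cannot be told apart in the pairs CxH vs. CxWT and MH vs. MWT, and the part of the area markers in the results below was not tested.

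The genes lie on 7 mouse chromosomes, with Plcb1 and Plcb4 side by side on the plus strand of chromosome 2 (NCBI37/mm9, GENCODE vM1: Plcb1 at chr2:134611895-135300994 and Plcb4 at chr2:135484747-135840329). The others are Prkca (chr11:107794701-108205242, minus strand), Prkcb (chr7:129432265-129777916, plus), Prkcd (chr14:31408542-31439396, minus), Prkce (chr17:86567125-87057259, plus), Prkcz (chr4:154634238-154735470, minus) and Plcb3 (chr19:7028204-7044279, minus). Plcb1 and Plcb4, though neighbors, went opposite ways in the data. Other annotated genes, such as Apoh on the strand opposite to Prkca, overlap Prkca, Prkcb, Prkce, Plcb1 and Plcb4. None of them is a gene of the table, and whether the counting used strand is not stated.

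The windows of 250 bases before the first RefSeq start are shown for the gene with the most reads, which was higher in the libraries labelled Ids-KO (Prkcb), and for the 2 genes that were lower (Prkcd and Plcb4). The letters are from RefSeq (GRCm38.p6 table), each occurs once, without a mismatch, on its chromosome of NCBI37/mm9, and they are written 5′ to 3′ along the gene. By the GENCODE positions above, the windows of Prkcb and Plcb4 lie inside the gene, downstream of its outermost start. Capitals mark matches, on either strand, to GGGCGG (a GC box, the core bound by Sp1 family factors), the CCAAT box, the TATA box in the form TATAAA, or the cyclic AMP response element TGACGTCA.
Prkcb, chr7:129432389-129432638, plus strand: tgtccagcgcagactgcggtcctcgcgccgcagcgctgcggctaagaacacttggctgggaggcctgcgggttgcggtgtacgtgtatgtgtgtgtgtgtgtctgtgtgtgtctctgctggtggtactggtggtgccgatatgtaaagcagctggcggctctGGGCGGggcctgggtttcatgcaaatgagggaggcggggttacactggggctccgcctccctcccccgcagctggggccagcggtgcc
Prkcd, chr14:31439395-31439644, minus strand: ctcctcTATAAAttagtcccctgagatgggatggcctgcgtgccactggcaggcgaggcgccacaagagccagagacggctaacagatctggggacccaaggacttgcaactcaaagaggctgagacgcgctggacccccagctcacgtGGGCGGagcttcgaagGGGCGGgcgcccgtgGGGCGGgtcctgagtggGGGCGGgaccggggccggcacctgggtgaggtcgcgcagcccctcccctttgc
Plcb4, chr2:135485033-135485282, plus strand: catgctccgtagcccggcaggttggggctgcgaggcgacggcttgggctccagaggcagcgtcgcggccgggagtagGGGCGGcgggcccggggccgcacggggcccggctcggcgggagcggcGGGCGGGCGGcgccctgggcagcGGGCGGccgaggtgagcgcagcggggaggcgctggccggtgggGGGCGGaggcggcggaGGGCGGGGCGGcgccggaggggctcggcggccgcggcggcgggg

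The 3 windows shared GC boxes and a high GC content, 65.2% for Prkcb, 67.6% for Prkcd and 85.2% for Plcb4, against a median of 52.4% over all windows. Plcb4 had 7 matches to GGGCGG, some overlapping each other, Prkcd had 4 and Prkcb had 1, where 32.7% of 32851 mouse promoter windows of this length held at least 1. The Prkcd window alone of the 3 held TATAAA, a motif found in 12.4% of all windows. None of them held CCAAT (33.8% of all windows) or TGACGTCA (1.5%). The Plcb4 window had 42 CG pairs, more than 99.1% of windows, against 18 for Prkcd and 17 for Prkcb and a median of 6. RefSeq gave windows for 7 of the 8 genes. It lists a second start for Plcb4 and for Prkcd, not shown, whose windows held 3 and 1 CG pairs. Neither of these held GGGCGG or TATAAA. A match is a description of the letters and not a site.

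Per length of the longest coding transcript, Prkcb was the most abundant of the 8 genes in every library. Before this scaling it had 944 RPM in CxH and 888 in MH, against 317 in CxWT and 344 in MWT. Both libraries labelled Ids-KO thus lay above both labelled WT, and no counting interval overlapped another. Per kilobase this was 324 and 305 RPKM in the former and 109 and 118 in the latter. The lowest per kilobase were Plcb3 in CxWT, MH and MWT, with levels of 3.71, 3.49 and 3.09 RPKM, and Plcb4 in CxH, with 3.25.

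**Figure D1:**
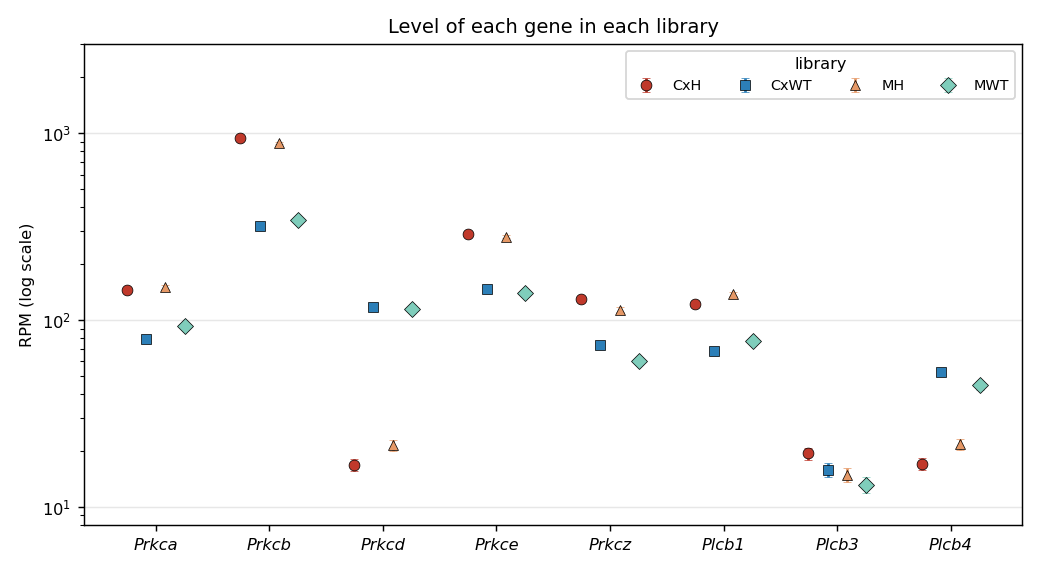
Level of the 5 PKC isoforms and 3 Plcb enzymes in each library, in RPM on a log axis, with the exact 95% Poisson interval of the count, often smaller than the symbol. The libraries labelled CxH (circles) and MH (triangles) lie above CxWT (squares) and MWT (diamonds) for Prkca, Prkcb, Prkce, Prkcz and Plcb1 and below them for Prkcd and Plcb4.

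The first comparison listed in the study was that of the Ids-KO cortex with the WT cortex. Between the libraries labelled CxH and CxWT, 7 of the 8 genes passed a log2 ratio of 0.7 in size, 5 of them higher and 2 lower in CxH. This threshold is the size the study used, and 21.2% of all 12700 genes passed it (9.59% higher and 11.6% lower). The 8 genes were chosen with earlier results of these data known. The contrast with all genes, here and in the pairs below, is therefore not a test. With factors by the trimmed mean of M values (TMM), the genes of the whole table past the threshold turned from 1218 higher and 1471 lower to 1463 higher and 1149 lower, while the 7 genes kept their side. In MH vs. MWT the calls over the whole table turned from 1572 higher and 1632 lower to 1788 and 1403 with TMM factors and to 1391 and 1914 with column totals. The median log2 ratio of the 8 genes was 0.82, and that of all genes was -0.09.

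Between MH and MWT, the pair labelled as the second area, 6 of the 8 genes passed, 4 higher and 2 lower in the library labelled MH, and 25.2% of all genes did (12.4% higher and 12.9% lower). The median of the 8 genes was 0.76, that of all genes -0.07. In this pair Ids went against its label, with a log2 ratio of 1.24 ± 0.025 (SE), and in the cortex pair with it, at -1.39 ± 0.024. The direction of 7 of the 8 genes was the same in both pairs, which by the description of the dissection share mice. That of Plcb3 was open in the M pair, where its log2 ratio of 0.18 had an interval of -0.01 to 0.37, and after a correction for GC content and length its ratios were 0.05 in the cortex pair and -0.26 in the M pair.

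Among the conventional isoforms, Prkcb, whose product is abundant in forebrain neurons, was higher by a log2 ratio of 1.57 ± 0.016 in CxH than in CxWT, from 36346 and 10672 reads. In the M pair its ratio was 1.37 ± 0.016, from 33175 and 9956 reads. These were the largest positive ratios of the 8 genes, with 97.9% and 96.3% of all genes below them. Prkca, whose product acts in synaptic plasticity among other roles, had 145 RPM in CxH and 150 in MH, against 79.2 in CxWT and 92.9 in MWT. The 2 libraries labelled Ids-KO were close to each other, with overlapping intervals, and both labelled WT lay below them. Its log2 ratio was 0.87 ± 0.034 in the cortex pair and 0.69 ± 0.034 in the M pair, which is just under the threshold, although its 95% interval of 0.62 to 0.75 spans it.

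The diacylglycerol-dependent isoforms went opposite ways. Prkcd, a gene used as a marker of thalamic neurons and of some neurons of the amygdala, had 16.8 RPM in CxH and 21.4 in MH, against 118 in CxWT and 115 in MWT. The libraries labelled WT did not differ beyond their counting intervals, and the ones labelled Ids-KO lay far below them. The log2 ratio was -2.82 ± 0.061 in the cortex pair (645 against 3974 reads, 7.06-fold lower) and -2.43 ± 0.057 in the M pair (799 against 3337 reads, 5.39-fold lower). Only 0.6% and 0.7% of all genes had a lower ratio. The thalamus markers moved in the same direction, 9 of 10 lower past the threshold in CxH vs. CxWT and 7 of 10 in MH vs. MWT, with medians of -2.52 and -2.01, and their part in the result for Prkcd was not tested.

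Prkce, whose product binds actin and is found in axon terminals, had 288 RPM in CxH and 279 in MH, against 146 in CxWT and 139 in MWT. The level intervals of the 2 libraries labelled Ids-KO overlapped, as did those of the 2 labelled WT, and the log2 ratios within these were small, at 0.05 (95% interval 0.01 to 0.08) for CxH vs. MH and 0.07 (0.01 to 0.13) for CxWT vs. MWT. Its log2 ratio was 0.98 ± 0.025 in the cortex pair and 1.01 ± 0.027 in the M pair, a 1.97-fold and a 2.01-fold higher level. Prkcz, the atypical isoform whose locus also gives the brain form PKM-zeta, had 129 RPM in CxH and 113 in MH, against 73.5 in CxWT and 60.1 in MWT, with no overlap between any of the libraries. The log2 ratio of Prkcz was 0.81 ± 0.036 in the cortex pair and 0.91 ± 0.041 in the M pair. The counts are per gene, so that the full-length kinase and PKM-zeta were not separated.

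Of the Plcb enzymes, Plcb1, the form most associated with cortex and hippocampus, had 122 RPM in CxH and 138 in MH, against 68.5 in CxWT and 77.4 in MWT. No interval overlapped another, and both libraries labelled Ids-KO were the higher ones. Its log2 ratio was 0.83 ± 0.037 in both pairs. Plcb4, known from thalamus, cerebellum and retina, was the reverse, with 16.9 RPM in CxH and 21.6 in MH, against 52.7 in CxWT and 44.6 in MWT. Both libraries labelled Ids-KO lay below both labelled WT, at a log2 ratio of -1.64 ± 0.066 in the cortex pair (652 against 1772 reads, 3.11-fold lower) and -1.04 ± 0.065 in the M pair (808 against 1291 reads, 2.06-fold lower). Plcb3, which is broadly expressed in the body, had 19.3 RPM in CxH and 14.8 in MH, against 15.7 in CxWT and 13.1 in MWT. CxH stood above the others, whose intervals overlapped from one to the next, and the gene did not pass the threshold in either pair. The log2 ratio of Plcb3 was 0.30 ± 0.082 in the cortex pair, and 0.18 ± 0.096 in the M pair, where its 95% interval of -0.01 to 0.37 includes 0.

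**Figure D2:**
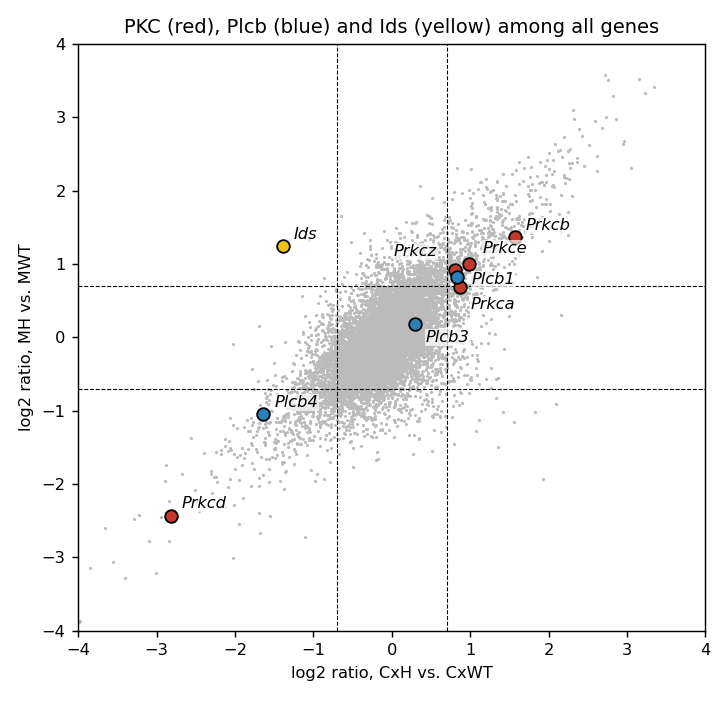
Log2 ratio of CxH over CxWT (horizontal axis) and of MH over MWT (vertical axis) for the 11010 genes counted 100 times or more in all 4 libraries (grey), of which 1 lies outside the axes, with PKC isoforms in red, Plcb enzymes in blue and Ids in yellow; dashed lines mark ratios of 0.7 in size. Prkcd and Plcb4 lie in the lower left corner and Prkcb in the upper right, while Ids alone of the marked genes has opposite signs.

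The ratios were larger in size in the cortex pair, beyond counting error, for 4 genes. The difference between the pairs, cortex minus M on the log2 scale, was -0.59 ± 0.092 for Plcb4, -0.39 ± 0.084 for Prkcd, 0.20 ± 0.023 for Prkcb and 0.18 ± 0.048 for Prkca. The 95% counting intervals of these differences leave out 0, but the spread between pools is not in them, so whether the pairs differ was not tested. For Prkce, Prkcz, Plcb1 and Plcb3 the intervals reached 0, the widest being that of Plcb3, from -0.13 to 0.37.

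The study also compared the 2 labelled areas within each genotype. Between the libraries labelled CxH and MH none of the 8 genes passed the threshold, nor between CxWT and MWT, where 3.89% and 7.99% of all genes did. Their ratios ran from -0.35 (Prkcd and Plcb4) to 0.39 (Plcb3) in CxH vs. MH and from -0.23 (Prkca) to 0.29 (Prkcz) in CxWT vs. MWT. These are the 2 pairs in which the summed area markers were closest, though with the single markers named above past the threshold, while Ids differed by log2 ratios of -1.44 and 1.19. Ids was thus lower in CxH than in MH and lower in MWT than in CxWT by more than the threshold. That none of the 8 genes passed is near the share of all genes in these pairs and is not a result about them. Whether these genes follow Ids or the area markers was not tested.

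In the 2 remaining pairs, the Ids levels were close and the summed area markers differed. Between CxH and MWT, with an Ids ratio of -0.20 ± 0.029, 5 of the 8 genes passed, beside 30.9% of all genes. These were Prkcb (1.46), Prkcz (1.10), Prkce (1.05), Plcb4 (-1.40) and Prkcd (-2.78). Between MH and CxWT, with an Ids ratio of 0.06 ± 0.018, 6 passed, beside 15.6% of all genes. They were Prkcb (1.48), Plcb1 (1.01), Prkce (0.93), Prkca (0.92), Plcb4 (-1.29) and Prkcd (-2.47). Each of the 4 libraries enters 3 of the 6 pairs, so the pairs are not independent of each other.

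**Figure D3:**
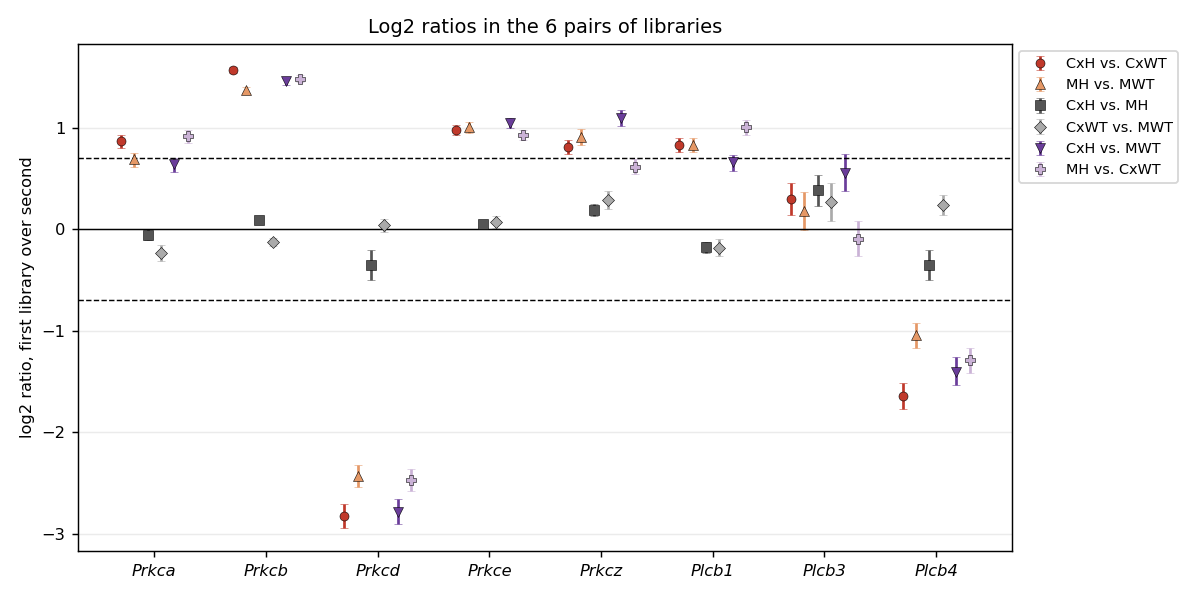
Log2 ratio of each gene in the 6 pairs of libraries, with the 95% interval from counting; dashed lines mark the threshold of 0.7 in size. The ratios of CxH vs. MH (squares) and CxWT vs. MWT (diamonds) lie between the lines for all 8 genes, from -0.35 to 0.39, and the other 4 pairs lie beyond a line for Prkcb, Prkce, Prkcd and Plcb4.

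Ratios of one gene to another inside a library do not depend on the library total. On the scale of reads per kilobase of the longest coding transcript, Prkcb exceeded Prkcd 55.2-fold in CxH (95% counting interval 51.1 to 59.7) and 40.7-fold in MH (37.9 to 43.6), but 2.63-fold in CxWT (2.54 to 2.73) and 2.92-fold in MWT (2.81 to 3.04). Both libraries labelled Ids-KO thus had ratios far above those labelled WT, and no interval overlapped another. Plcb1 exceeded Plcb4 5.37-fold in CxH and 4.74-fold in MH, whereas in CxWT the ratio was 0.969 (0.91 to 1.03) and in MWT 1.29 (1.21 to 1.38). The gene models behind the counts are not stated. With the union of all annotated exons as length, an alternative added after the data were seen, the first ratio was 59.1, 43.6, 2.82 and 3.13 in CxH, MH, CxWT and MWT, and the second 7.44, 6.57, 1.34 and 1.79.

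Of the reads per kilobase summed over 8 PKC genes (the 5 described here with Prkch, Prkcq and Prkci), Prkcb took 74.0% ± 0.16 (SE) in CxH, 73.3% ± 0.17 in MH, 50% ± 0.32 in CxWT and 52.5% ± 0.34 in MWT. The share of Prkcd was 1.34% ± 0.052 in CxH and 1.80% ± 0.063 in MH, and 19.0% ± 0.27 in CxWT and 18.0% ± 0.28 in MWT. Of these genes, Prkcd was thus the second by share in both libraries labelled WT and the sixth in both labelled Ids-KO. The share of Prkce stayed between 9.86% and 10.7%, and that of Prkca between 3.92% and 4.90%. Among the 3 Plcb genes, Plcb1 took 69.1% ± 0.65 in CxH, 72.0% ± 0.62 in MH, 41.5% ± 0.72 in CxWT and 48.7% ± 0.81 in MWT. Plcb4 took 12.9%, 15.2%, 42.8% and 37.7% in the same order, and Plcb3 between 12.8% and 18.1%.

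**Figure D4:**
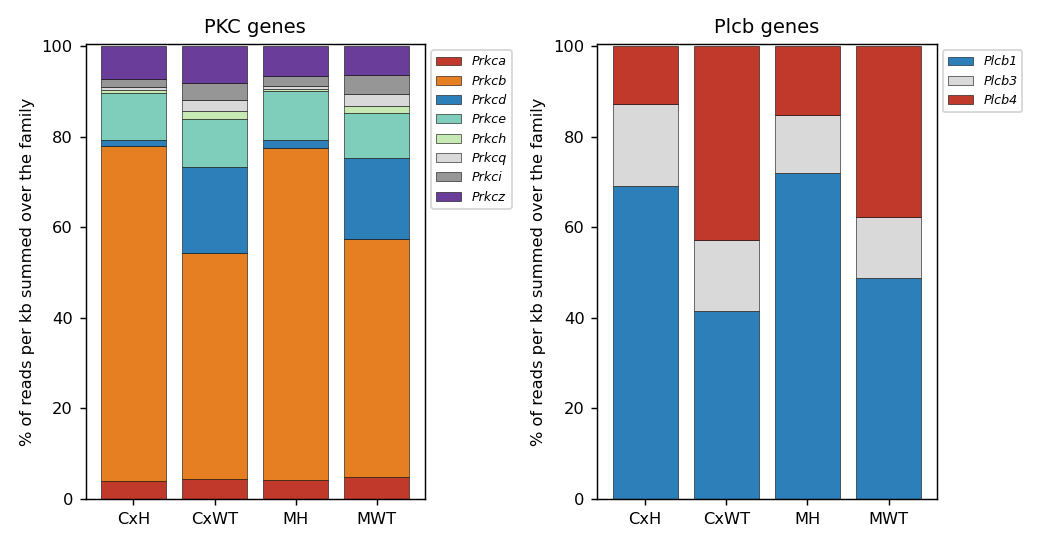
Share of each gene in the reads per kilobase of longest coding transcript summed over 8 PKC genes (left) and over 3 Plcb genes (right), in percent, for each library. Prkcd takes 19.0% and 18.0% in CxWT and MWT and 1.34% and 1.80% in CxH and MH, and Plcb4 takes 42.8% and 37.7% against 12.9% and 15.2%.

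The remaining genes of the pathway were taken from 8 lists, also chosen with earlier results known, with 69 of 72 genes in the table. In CxH vs. CxWT 18 of the 69 were higher and 12 lower past the threshold, which is 43.5%, and in MH vs. MWT 21 were higher and 13 lower, which is 49.3%, beside 21.2% and 25.2% of all genes. In CxH vs. MH 3 of the 69 passed and in CxWT vs. MWT 4 (4.35% and 5.80%), near the 3.89% and 7.99% of all genes.

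The Gq-coupled receptors, which lie upstream of Plcb enzymes, split in both directions. Of 14 in the table, 4 were higher and 5 lower in CxH vs. CxWT (median -0.04), and 5 were higher and 4 lower in MH vs. MWT (median -0.10). The muscarinic receptor gene Chrm1, a forebrain receptor, was higher at log2 ratios of 2.60 ± 0.051 and 2.95 ± 0.061 in the cortex and M pairs. The adrenergic receptor gene Adra1d had 3.11 ± 0.16 and 2.70 ± 0.17, and the cholecystokinin receptor gene Cckbr 2.21 ± 0.097 and 2.10 ± 0.11. Lower were the neurokinin receptor gene Tacr3, at -2.95 ± 0.20 and -2.71 ± 0.18, and the serotonin receptor gene Htr2c, at -1.94 ± 0.047 and -1.60 ± 0.042. The metabotropic glutamate receptor gene Grm5, at 0.04 ± 0.030 and 0.51 ± 0.030, did not pass.

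Of the 3 alpha subunits in the table that link these receptors to Plcb enzymes, 1 passed, in the cortex pair. Gnaq, a ubiquitous member, had 143 to 156 RPM in the 4 libraries, and log2 ratios of -0.02 ± 0.028 and 0.04 ± 0.029. Gna11 had 0.68 ± 0.035 and 0.36 ± 0.039. The gene that passed was Gna15, a form known from blood cells, at 0.94 ± 0.23, from 125 and 57 reads, which had -0.13 ± 0.25 in the M pair. In the cortex pair, the genes of this list past the threshold numbered 2 with TMM or DESeq2 size factors and 0 after the correction for GC content and length. The median of the list was 0.68 in the cortex pair and 0.04 in the M pair.

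Among the other phospholipases C, 3 of 10 were higher and 2 lower in the cortex pair (median 0.17), and 2 were higher and 4 lower in the M pair (median -0.13). Plch1 was lower at -2.08 ± 0.097 and -1.41 ± 0.085, and Plce1, an enzyme driven by small GTPases, at -1.09 ± 0.083 and -1.60 ± 0.086. Plcd3 was higher in both, at 1.09 ± 0.11 and 0.89 ± 0.13. Plcg2, the form used by microglia and other immune cells, had 0.76 ± 0.16 in the cortex pair and -0.51 ± 0.17 in the M pair, and the microglia markers, whose part in this was not tested, had opposite signs in these pairs as well, with summed levels of 553 RPM in CxH against 282 in CxWT, and 336 in MH against 430 in MWT.

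Of the 3 IP3 receptor genes, Itpr1, the main neuronal form, was higher at 1.52 ± 0.021 and 1.47 ± 0.023, with 517 and 476 RPM in CxH and MH against 181 and 172 in CxWT and MWT. Its 2 relatives did not pass in these pairs, with Itpr2 at 0.07 and 0.20 and Itpr3 at 0.38 and 0.33. Of further PKC isoforms, Prkcq had -0.63 ± 0.085 and -1.01 ± 0.088 and so passed in the M pair. Prkch, at -0.66 and -0.67, and Prkci, at -0.11 and -0.13, did not pass in either.

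The enzymes that consume diacylglycerol, its kinases and lipases, had 2 higher and 2 lower of 11 in the cortex pair and 4 higher and none lower in the M pair (medians 0.46 and 0.48). Dgkz was the highest, at 1.76 ± 0.027 and 1.86 ± 0.034. Dagla, the lipase that makes the endocannabinoid 2-arachidonoylglycerol at synapses, had 0.62 ± 0.041 and 1.42 ± 0.055. Of the effectors of diacylglycerol other than PKC, 3 were higher and 1 lower of 11 in the cortex pair and 4 higher and 2 lower in the M pair (medians 0.20 in both). Chn1, a GTPase regulator of neurons, had 1.16 ± 0.016 and 1.62 ± 0.018, and Rasgrp1, which activates Ras, 1.07 ± 0.022 and 0.91 ± 0.022. The synaptic vesicle priming gene Unc13c was lower at -1.69 ± 0.045 and -1.17 ± 0.042, while its relative Unc13a was higher at 0.82 ± 0.024 and 1.42 ± 0.029.

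Among 13 substrates and anchors of PKC, 3 were higher and 2 lower in the cortex pair and 4 higher and 2 lower in the M pair (medians -0.13 and 0.07). Nrgn, which encodes the calmodulin-binding PKC substrate neurogranin of forebrain neurons, had the highest positive ratio of the 69 genes in the M pair and the highest after Adra1d in the cortex pair, with 521 and 374 RPM in CxH and MH against 73.4 and 38.3 in CxWT and MWT, and log2 ratios of 2.83 ± 0.031 and 3.29 ± 0.045 in the 2 pairs. The PKC anchor gene Akap5 had 1.25 ± 0.047 and 1.66 ± 0.051, and Akap12 -0.93 ± 0.057 and -1.06 ± 0.061. The growth cone protein gene Gap43 had -0.77 in both pairs. The myristoylated substrate gene Marcks, at -0.26 and -0.46, did not pass.

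**Figure D5:**
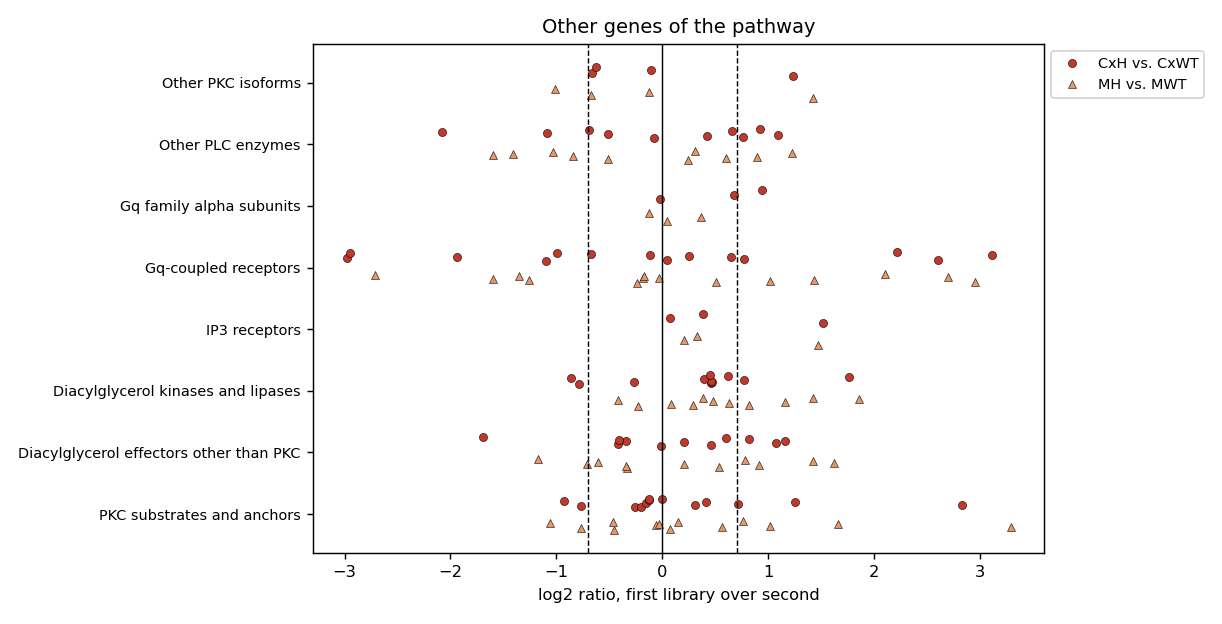
Log2 ratio of CxH vs. CxWT (circles) and of MH vs. MWT (triangles) for 69 further genes of the pathway in 8 lists; dashed lines mark 0.7 in size. Receptors reach from -2.98 to 3.11 in the cortex pair, whereas the Gq alpha subunits lie between -0.13 and 0.94 in both pairs.

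The patterns of the 8 genes over the 4 libraries were compared by the Euclidean distance between log2 RPM values centered on their mean. Prkca and Plcb1 were closest, at 0.11, followed by Prkce and Prkcz at 0.23, whereas the 2 lower genes Prkcd and Plcb4 were 1.29 apart, Prkcd spanning the wider range. Among the 11003 genes with a symbol that had 100 reads or more in all 4 libraries, the nearest to Prkcb were Kcnq5 (0.092) and Zfp365 (0.10), and the nearest to Prkca were Cdk17 (0.045) and Cacna2d3 (0.067). Ext1 (0.066) was near to Prkce, and Socs7 (0.024) and Myh9 (0.040) were nearest to Prkcz. For Prkcd, the nearest genes were as far as 0.28 (Peg10 and Cbln1). Mreg (0.094) and Nhs (0.13) were nearest to Plcb4, Rai14 (0.058) and Kcnt2 (0.061) to Plcb1, and St6galnac4 (0.014) and Myorg (0.029) to Plcb3. Such a distance rests on 4 libraries and describes likeness of pattern only.

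Ratios also moved with base composition. Across 10815 genes, Spearman's correlation of the GC content of the longest coding transcript with the log2 ratio was 0.461 in CxH vs. CxWT and 0.485 in MH vs. MWT, a description over genes that share the same libraries. It was larger in CxH vs. MH (0.582), CxWT vs. MWT (0.626) and CxH vs. MWT (0.685), and smaller in MH vs. CxWT (0.163). Plcb4 and Plcb1 have the lowest GC content of the 8 genes, 43.5% and 43.9%, and Plcb3 the highest, 56.9%. Ratios corrected for GC content and length in the cortex and M pairs were -1.37 and -0.83 for Plcb4, 1.07 and 0.96 for Plcb1, -2.90 and -2.46 for Prkcd and 1.56 and 1.42 for Prkcb. Each of these kept its direction and side of the threshold. Plcb3, at 0.05 and -0.26 after correction, changed sign in the M pair without passing the threshold.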

How the data were processed

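RNA was sequenced from pools of 7 mice in 4 conditions, with 1 library each. SOLiD reads were mapped by the authors on NCBI37/mm9 with the PASS aligner, where a best hit could carry 2 mismatches but no gap. The deposited counts are reads per gene, kept by the authors where a read fell on a single gene and the coverage of that gene was above 50%. Their gene annotation and use of strand are not given in the sources used here.

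Scaling by the number of aligned reads turned each count into RPM. Libraries were compared as log2 ratios, a count of 0 being set to 1. Standard errors and 95% intervals are those of Poisson counts and cover counting error only. Since each condition had 1 library, single conditions could not be tested against each other, and no test that joined areas or genotypes was run. A gene was said to pass where its log2 ratio was 0.7 or more in either direction, the size used by the authors without their p-value. Gene symbols came from RefSeq by Entrez identifier, for 12690 of 12700 genes, and length, GC content and positions from GENCODE vM1 on mm9, for 12353 genes with length and GC content. Levels per kilobase used the longest coding transcript. Promoter windows are the 250 bases before each RefSeq start.

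The 8 genes and the 8 pathway and 10 marker lists were chosen with earlier results of these data known. Named were all 8 genes, Ids, genes of the pathway lists, and the 2 genes nearest in pattern to each. En1, Oxt, Gata3 and Avp were named after their counts were seen. A few genes that this rule names are not reported here, and the shares of PKC genes were taken without one of them.

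Alternatives were column totals, TMM factors, DESeq2 size factors, a log2 threshold of 1, at least 100 reads in either library, 0.5 added to every count, a likelihood ratio test on Poisson counts at a p-value of 0.05 as a further condition (which compares the reads of 2 libraries, not the conditions), and a correction for GC content and length. The steps were tested on simulated data. The software was edgeR 4.0.16 and DESeq2 1.42.0 under R 4.3.3 for the factors, and pandas 2.3.3, scipy 1.17.1, numpy 2.4.6 and matplotlib 3.10.9 under Python 3.11.15 for the rest.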

Additional observations from a re-analysis of the deposited data

Results flagged for a closer look

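Of the 8 genes, 2 had opposite signs in the 2 pairs that are labelled as cortex against the M area but had close summed levels of area markers, with counting intervals that leave out 0. Plcb4 had a log2 ratio of -0.35 ± 0.076 (SE) in CxH vs. MH and of 0.24 ± 0.053 in CxWT vs. MWT. Prkcb had 0.09 ± 0.011 and -0.12 ± 0.020. All 4 values are below the threshold of 0.7 in size. With 1 library per condition the difference was not tested beyond counting error. Under the correction for GC content and length, Plcb4 had -0.13 and 0.42 and Prkcb 0.08 and -0.06. With column totals, Plcb4 had -0.40 and 0.15 and Prkcb 0.04 and -0.21. With TMM factors, Plcb4 had -0.37 and 0.19 and Prkcb 0.07 and -0.16. For Prkcb, such shifts are close to the size of the ratios themselves.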

How the results depend on the processing

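With a log2 threshold of 1, the genes past it numbered 3 (Prkcb, Prkcd and Plcb4) in place of 7 of 8 in CxH vs. CxWT, and 4 in place of 6 in both MH vs. MWT and MH vs. CxWT. Under the other alternatives, 7 passed in CxH vs. CxWT, 6 or 7 in MH vs. MWT, 5 to 7 in CxH vs. MWT, 6 or 7 in MH vs. CxWT and none in CxH vs. MH or CxWT vs. MWT. Prkca in MH vs. MWT had 0.75 with TMM factors or DESeq2 size factors, past the threshold, in place of 0.69, and Prkcz in MH vs. CxWT had 0.73 in place of 0.62. Under the GC and length correction, Plcb1 in CxH vs. MWT had 1.01 in place of 0.66 and Prkca 0.79 in place of 0.64, and Plcb1 had 0.70 there with TMM factors. The cause of these moves was not tested. No ratio past the threshold changed sign under any alternative. The scalings shifted the median of all genes by -0.11 (column totals, CxH vs. MWT) to 0.11 (TMM and DESeq2 size factors, MH vs. CxWT).

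Over all genes, a log2 threshold of 1 left 1417 of 2689 in CxH vs. CxWT, 1662 of 3204 in MH vs. MWT, 166 of 494 in CxH vs. MH, 321 of 1015 in CxWT vs. MWT, 1974 of 3921 in CxH vs. MWT and 1080 of 1986 in MH vs. CxWT. A filter of 100 reads left 312 in CxH vs. MH, and the GC and length correction 430 in CxWT vs. MWT and 2045 in CxH vs. MWT. In CxH vs. CxWT, a log2 threshold of 1 left 3 of 5 other phospholipases C, 1 of 4 diacylglycerol kinases and lipases, 2 of 5 PKC substrates and anchors and 0 of 1 Gq alpha subunits, which numbered 2 with TMM or DESeq2 size factors and 0 after the GC and length correction. That correction gave 2 in place of 1 of the other PKC isoforms. In MH vs. MWT that threshold left 3 of 6 diacylglycerol effectors.

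No paired analysis was run. Each condition had 1 library, so a pairing of the genotypes by labelled area would have 1 pair per area. Leaving out a replicate was not possible, because no condition had more than 1 library. The lowest count of these genes was 378 reads (Plcb3 in MWT), and counting error left Prkca in MH vs. MWT on either side of the threshold. The spread between pools of mice, the disagreement of Ids and the area markers with the labels, and the unstated gene models limit every comparison.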
